A study of Mus musculus with 134 samples.

Results

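Hoxb4-high tumors were 19 of the 134 mammary tumors of a MOLF/EiJ backcross. They were selected on a measured value, the log2 signal of the probe set whose only symbol is Hoxb4. A tumor was called high above 6.04, and the 115 tumors at or below that value are the other tumors. Hoxb4 ran from 6.05 to 7.46 in the high tumors, with a median of 6.47, and from 5.14 to 6.03 in the others, with a median of 5.41. The tumor just inside the threshold was tumor 98 at 6.05 and the tumor just outside was tumor 79 at 6.03. The values of Hoxb4 formed a continuous slope with no gap at the threshold. Hoxb4 itself is given as a description only, with no test, because it chose the groups.

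All tumors came from females that carried the MMTV-PyMT transgene, in which the promoter of the mouse mammary tumor virus drives the polyoma middle T antigen. PyMT males were bred to MOLF/EiJ females, and their PyMT-positive sons to FVB/NJ females. Both groups therefore share the transgene and the cross, and each daughter carried its own set of MOLF segments. The animals were untreated and the tumors were snap frozen as the animals neared humane endpoints. The labels give 1 tumor per animal and neither ages nor the gland sampled, and genotypes were not analysed here. All samples are labelled mammary tumors, and Epcam, an epithelial adhesion molecule, was far above background in both groups, with a mean of 11.08 ± 0.47 (SD, n = 19) in the high and 11.27 ± 0.17 (SD, n = 115) in the other tumors. The signals are from Mouse Gene 1.0 ST arrays, 1 per tumor, summarized by the authors with RMA on the log2 scale. The detection floor was 5.72, the level under which the means of 95% of 1190 olfactory and vomeronasal receptor genes lay. Hoxb4 was above it in all 19 high tumors and in 12 of the 115 others.

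Hox genes encode homeodomain transcription factors that lie in the genome as 4 clusters, Hoxa to Hoxd, and lay out position along the body axis in the embryo. Within a cluster, neighboring genes are often active together, and genes at the low-numbered end act early and toward the head. Hox proteins bind DNA together with Pbx, Meis and Pknox cofactors. Hoxb4 is best known outside the embryo for its part in the growth of blood stem cells.

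The start regions of Hoxb4 and Hoxb1 are shown because these genes lie on either side of Hoxb2 and behaved differently, as given below. Of the 9 measured Hoxb genes these 2 had an entry in the RefSeq promoter table of build GRCm38.p6. Each window covers 250 bases before to 50 bases after the start on the plus strand, chr11:96318017-96318316 for Hoxb4 and chr11:96365508-96365807 for Hoxb1. The mature miR-10a-5p (chr11:96317186-96317208) is shown because its gene lies beside Hoxb4, within the RefSeq span of Hoxb3. Capitals mark matches to 4 motifs in the promoters and the seed, bases 2 to 8, in the miRNA.
Hoxb4: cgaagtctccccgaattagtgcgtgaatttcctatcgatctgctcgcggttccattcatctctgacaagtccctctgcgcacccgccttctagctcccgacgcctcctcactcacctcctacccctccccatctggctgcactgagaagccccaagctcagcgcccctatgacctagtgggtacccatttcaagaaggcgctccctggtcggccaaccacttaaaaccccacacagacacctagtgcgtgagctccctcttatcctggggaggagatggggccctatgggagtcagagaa
Hoxb1: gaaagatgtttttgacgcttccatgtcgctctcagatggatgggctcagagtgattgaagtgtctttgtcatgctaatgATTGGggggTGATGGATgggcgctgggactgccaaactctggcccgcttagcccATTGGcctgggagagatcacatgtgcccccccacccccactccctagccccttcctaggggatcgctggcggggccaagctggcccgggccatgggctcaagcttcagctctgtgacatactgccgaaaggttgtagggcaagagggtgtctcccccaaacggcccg
miR-10a-5p: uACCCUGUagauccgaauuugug

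The motifs were searched on both strands. They were the E-box CACGTG, the CCAAT box CCAAT, the Hox-Pbx element TGATNNAT and the TATA box TATAAA. None of the 4 was in the Hoxb4 window, and the Hoxb1 window held 2 CCAAT boxes and 1 Hox-Pbx element. Of 32851 promoters of the same length, 7.15% held the E-box, 37.4% the CCAAT box, 8.85% the Hox-Pbx element and 13.6% the TATA box. The Hoxb4 window held 14 CG dinucleotides and the Hoxb1 window 10, against a median of 7 over these promoters. A match is a description of the letters and not of a bound site.

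The protein-coding genes nearest Hoxb4 toward either side had the smallest adjusted p in the limma test described below. By size of the difference, genes elsewhere such as Hpse2 and Meis1 rose more than Hoxb3 and Hoxb5. Hoxb2, Hoxb3 and Hoxb5, which help to pattern the hindbrain and neck region of the embryo, were 2.32-fold, 1.79-fold and 1.28-fold higher in the Hoxb4-high tumors. Hoxb6 and Hoxb7 were higher by 1.11-fold and 1.09-fold, and Hoxb1, Hoxb9 and Hoxb13 did not pass the test. The test was limma over all 19937 other genes with Benjamini-Hochberg adjustment, 2-sided, and passing means an adjusted p under 0.05. Of all genes tested, 10.6% passed, 5.8% as higher and 4.82% as lower in the high tumors. Of the 8 other Hoxb genes measured, 5 rose and 0 fell, with a median log2 difference of 0.14 against 0.0060 over all genes.

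Hoxb2 ran from 6.66 to 8.84 in the high tumors, with a median of 7.43, and from 5.64 to 7.29 in the others, with a median of 6.19. In 11 of the 19 high tumors it was above every other tumor, and 12 of the 115 others exceeded the lowest high tumor. The difference was 1.21 ± 0.085 (SE) on the log2 scale, with an adjusted p of 2.37e-24 from limma. Hoxb2 was highest in tumors 37, 85 and 64, at 8.84, 8.48 and 8.44, which also held the 3 highest Hoxb4 values.

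Hoxb3 ran from 6.84 to 9.43 in the high tumors, with a median of 8.01, and from 6.80 to 7.92 in the others, with a median of 7.23. It too was above every other tumor in 11 of 19 high tumors, but tumor 92, at 6.84, was below 112 of the 115 others. The wide overlap of the ranges came from this tumor. The next lowest high tumor was tumor 93, at 7.57, above the median of the others but below their highest value. The log2 difference was 0.84 ± 0.074, with a limma adjusted p of 3.62e-17. In the RefSeq annotation the span of Hoxb3 covers Hoxb4 and Mir10a and overlaps the antisense Hoxb3os, so the signals of Hoxb3 and Hoxb4 may draw on shared transcripts, which was not tested.

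Hoxb5 was a dim gene, from 5.82 to 7.05 in the high tumors, with a median of 6.01, and from 5.41 to 6.05 in the others, with a median of 5.74. It was above the floor in all 19 high tumors and in 68 of the 115 others. Tumor 64, which had the highest Hoxb4, also had the highest Hoxb5, and 9 high tumors exceeded every other tumor. The log2 difference was 0.36 ± 0.04, with a limma adjusted p of 5.87e-12.

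**Figure D1:**
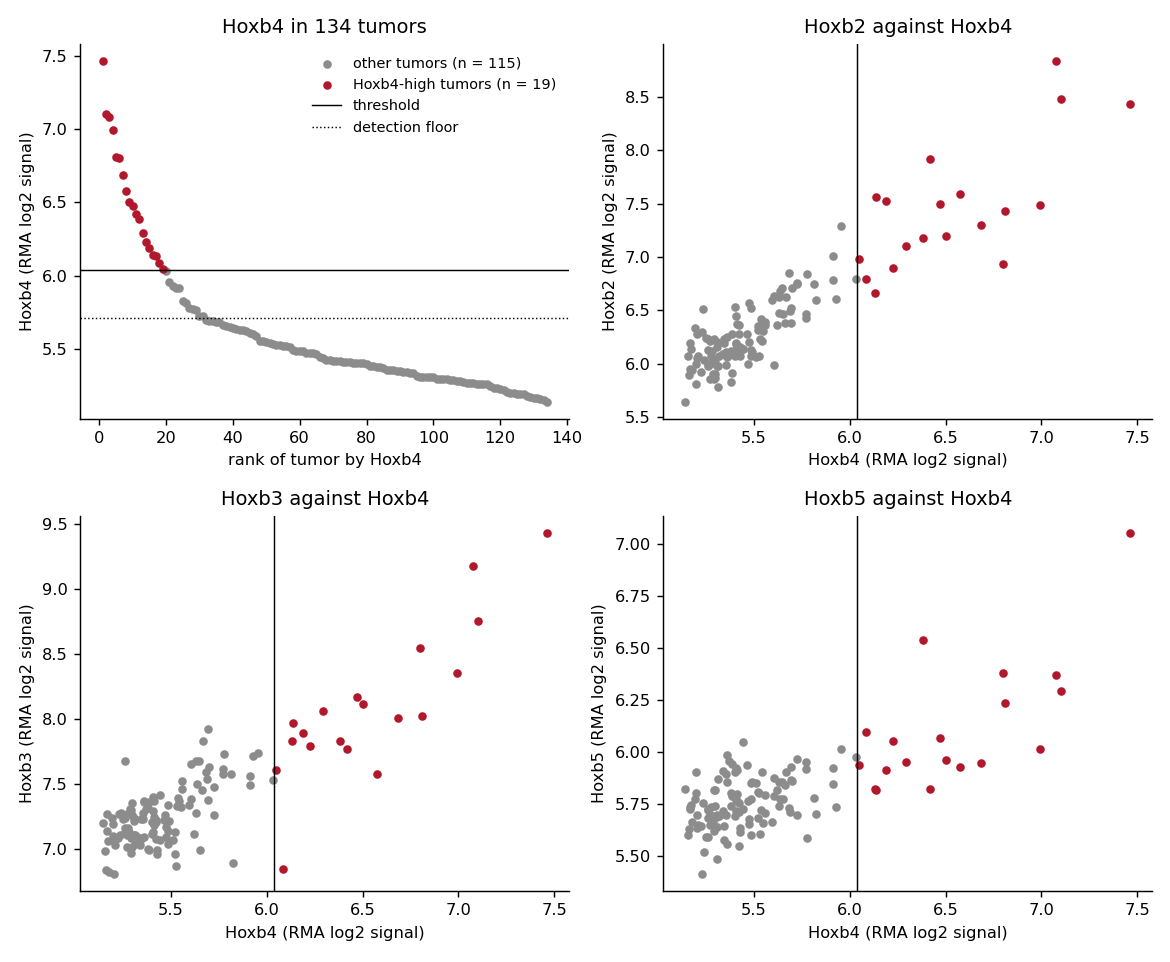
The first panel plots the Hoxb4 log2 signal of the 134 tumors by rank, with the threshold of 6.04 and the detection floor of 5.72 as lines. The other panels plot Hoxb2, Hoxb3 and Hoxb5 against Hoxb4 on the log2 scale, 1 point per tumor: all 3 climb with Hoxb4 among the 19 high tumors, and tumor 92 lies low for Hoxb3 at 6.84.

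The relation was also described within each group, against the same Hoxb4 values that chose the groups. Among the 19 high tumors Pearson's r with Hoxb4 was 0.724 for Hoxb2, 0.845 for Hoxb3 and 0.702 for Hoxb5. Among the 115 others it was 0.796, 0.616 and 0.41. Hoxb4 was above the floor in only 12 of these 115, so these values rest mostly on signal below it. For Hoxb6, Hoxb7, Hoxb9 and Hoxb13 it lay between -0.23 and 0.0852 among the high tumors and between 0.0385 and 0.257 among the others. It was 0.184 and 0.242 for Hoxb1, and 0.479 and 0.0232 for Mir10a. These correlations share arrays and probe background between genes and are given as descriptions. Hoxb3 and Hoxb4 may also share transcripts, as said above, which was not tested.

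Beyond Hoxb5 the differences became small. Hoxb6 differed by 0.15 ± 0.037 (limma adjusted p = 0.00421) and Hoxb7 by 0.13 ± 0.037 (limma adjusted p = 0.0162). Hoxb7 no longer passed without tumor 92 or without tumor 94 (the larger limma adjusted p was 0.115). Hoxb6 did not pass without tumors 73 to 99 (0.09, limma adjusted p = 0.53), nor with scores of 6 cell types as covariates (0.09, limma adjusted p = 0.395). Hoxb9 differed by 0.06 ± 0.037 and Hoxb13, at the far end, by 0.02 ± 0.024, with limma adjusted p of 0.267 and 0.683. Hoxb1, which lies directly beyond Hoxb2, had a median of 6.98 in the high and 6.96 in the other tumors and differed by 0.03 ± 0.03 (limma adjusted p = 0.619). The probe set of Mir10a, the gene of the miRNA shown above, had a median of 3.92 in the high and 3.90 in the other tumors, both below the floor, and differed by 0.05 ± 0.024 (limma adjusted p = 0.201). Hoxb8 had no probe set with a single symbol and is not reported here.

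**Figure D2:**
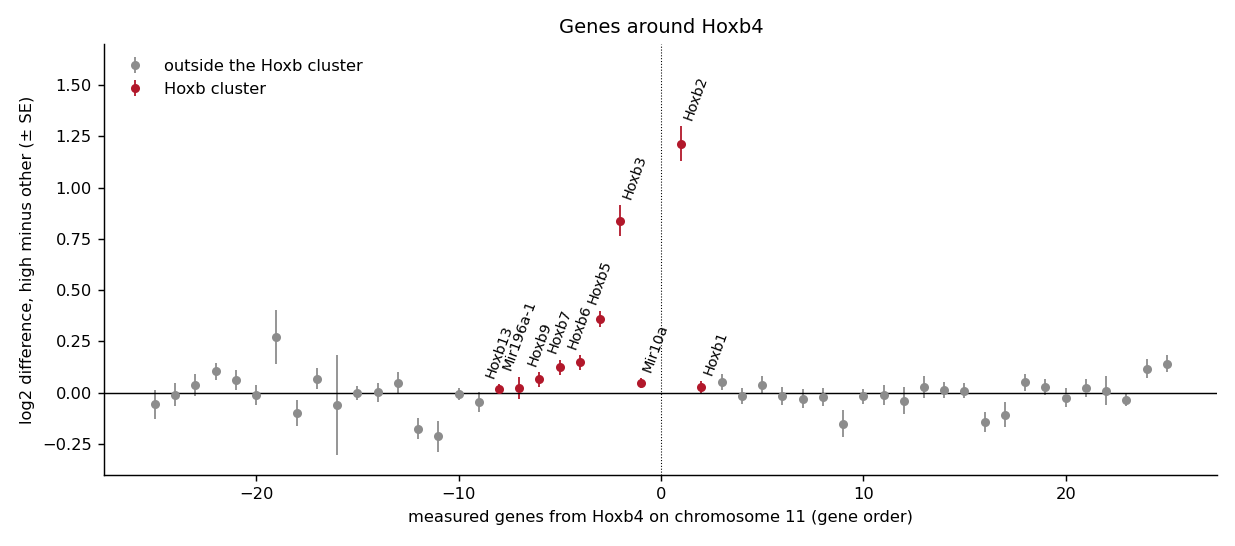
Log2 difference (high minus other tumors, bars are SE from limma) of the measured genes up to 25 places on each side of Hoxb4 in the gene order of chromosome 11, with Hoxb4 left out at 0. The rise peaks at Hoxb2 (1.21) and Hoxb3 (0.84), is 0.36 at Hoxb5 and 0.03 at Hoxb1, and the genes outside the cluster lie between -0.21 and 0.27.

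The genes around the Hoxb cluster did not share the rise. Among the 40 genes outside the cluster within 25 places of Hoxb4 on either side, 4 passed, which is 10% against 10.6% of all genes, and their log2 differences lay between -0.21 and 0.27. The 1 that rose was Arhgap23, by 0.14 ± 0.042 (limma adjusted p = 0.0187). Ube2z, a ubiquitin-conjugating enzyme, Atp5g1, a subunit of mitochondrial ATP synthase, and Mrpl10, a protein of the mitochondrial ribosome, fell by 0.17, 0.21 and 0.14. The count was 0 without tumor 94, with 9 genes at an unadjusted p under 0.05 from limma.

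Over the whole of chromosome 11 outside the Hoxb cluster, 149 of 1552 genes passed, which is 9.6% against 10.6% of all genes. Of these, 74 rose and 75 fell, and the median log2 difference was 0.0046 against 0.0060 over all genes. The count was 76 without tumor 73 and 63 without tumor 94. Of the 10 with the smallest adjusted p, 6 fell and 4 rose. Pitpna, a phosphatidylinositol transfer protein, ran from 10.38 to 11.50 in the high and from 11.02 to 11.79 in the other tumors and differed by -0.25 ± 0.041 (limma adjusted p = 2.03e-05). The membrane protein Tlcd3a, the PDZ protein Tax1bp3, the clathrin adaptor Ap2b1, Nploc4, a cofactor of the p97 ATPase, and the chaperone calnexin, Canx, fell by 0.18 to 0.41 on the log2 scale. Higher were the lipoxygenase Alox12 by 0.25, the gap junction gene Gjc1 by 0.18, the tau gene Mapt by 0.21 and Acsf2, an acyl-CoA synthetase family member, by 0.65. Alox12 lay below the floor in 18 of 19 high and in all 115 other tumors, and Gjc1 in 17 and in 115. Meis1, Krt15, Wfdc17, Cd68, Xbp1 and Pcgf2, which are named below, are also among the 149 genes. Pcgf2 lies 30 places from Hoxb4.

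In the other 3 Hox clusters fewer genes passed, and each of those calls was lost without tumor 73 or without tumor 94. Of 10 Hoxa genes 3 rose, of 9 Hoxc genes 3 rose and of 9 Hoxd genes 0 passed (2 at an unadjusted p under 0.05 from limma), with medians of 0.095, 0.099 and 0.022. No Hox gene in any cluster fell. In total 11 of the 36 Hox genes other than Hoxb4 passed, which is 30.6% against 10.6% of all genes. The count was 6 without tumor 73 and 5 without tumor 94. The mean over all tumors was above the floor for 3 of the 10 Hoxa, 0 of the 9 Hoxc and 3 of the 9 Hoxd genes.

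Hoxc8, Hoxc6 and Hoxa5, genes of the trunk region of the embryo, were highest in tumors 94 and 73. Hoxc8 was 7.88 in tumor 94 and 7.65 in tumor 73, with a median of 5.61 over the high tumors and a range from 5.07 to 6.03 in the others. The only further high tumor above that range was tumor 61, at 6.62. Hoxc6 was 8.15 in tumor 94 and 7.73 in tumor 73, with a median of 5.31 over the high and 5.32 over the other tumors, whose highest value was 5.83. Tumor 61, at 6.36, was the only further tumor above it. Hoxa5 was 7.50 in tumor 73 and 6.301 in tumor 94, with medians of 5.17 and 5.10 and a highest other tumor at 5.59. In each of the 3 genes the medians of the groups were thus close, and 3 of 19 high tumors lay above all others. Tumor 73 also stood apart in markers of other tissues. Its summed log2 signal was 14.63 for the adipocyte genes, against at most 12.33 in the other tumors, and 15.95 for the skeletal muscle genes, against at most 15.03. For the luminal epithelial genes it was 12.51, against at least 13.45. The part of these tissues in the Hox values was not tested.

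Hoxc8 differed by 0.32 ± 0.082 over all tumors (limma adjusted p = 0.0056). It did not pass without tumor 73 (limma adjusted p = 0.0559) or without tumor 94 (0.0698). Hoxc6 differed by 0.32 ± 0.088 and Hoxa5 by 0.26 ± 0.066, with limma adjusted p of 0.00956 and 0.00619. Hoxc6 did not pass without either tumor (limma adjusted p of 0.0862 and 0.113), and Hoxa5 did not pass without tumor 73 (0.0679). Hoxa3, Hoxa10 and Hoxc11 were higher by 0.12, 0.15 and 0.14. Hoxa3 did not pass without tumor 73 or 94, Hoxc11 not without tumor 94, and Hoxa10 not without tumor 17, 73, 92, 93 or 94.

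**Figure D3:**
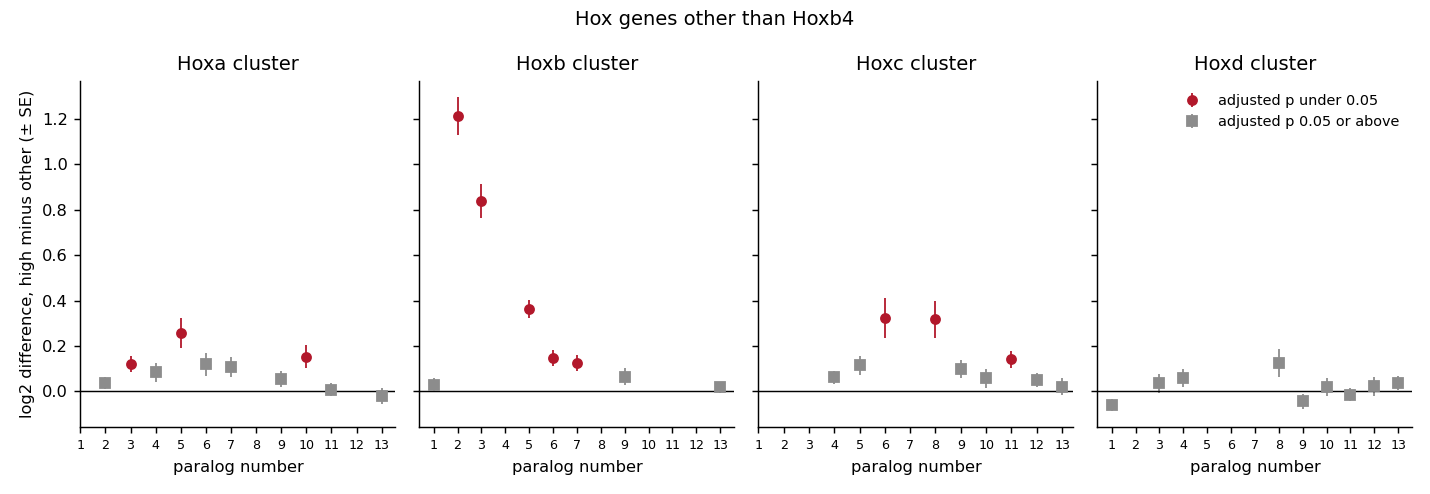
Log2 difference (high minus other tumors, bars are SE from limma) of the 36 measured Hox genes other than Hoxb4, by paralog number in each cluster. Circles passed the test and squares did not: Hoxb2, Hoxb3 and Hoxb5 stand at 1.21, 0.84 and 0.36, and no gene of the other clusters exceeds Hoxc8 and Hoxc6 at 0.32.

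Tumors 73 and 94 were also among the arrays that stood apart. For each array the size of the deviation of every gene from its median over all arrays was taken, and the median of these sizes served as the value of array quality, larger for arrays farther from the rest. Whether it follows the array or the makeup of the tissue was not tested. It was 0.232 in tumor 73 and 0.235 in tumor 94. The mean was 0.138 ± 0.048 (SD, n = 19) in the high and 0.113 ± 0.034 (SD, n = 115) in the other tumors (2-sided permutation test of the means, p = 0.016). Values above 0.15 occurred in 6 of the 19 high tumors (17, 61, 73, 92, 93 and 94) and in 11 of the 115 others. The high tumors also fell unevenly over the labels: 9 of the 27 tumors numbered 73 to 99, whose numbers are written without a leading zero, were high against 10 of the other 107. Of tumors 1 to 106, 18 were high, and of tumors 107 to 134, 1 was (Fisher's exact test, 2-sided, p = 0.123). Beside each number the labels give an animal ID. These IDs rise almost in order over tumors 1 to 106, with tumors 73 to 99 in sequence, and start again from a lower ID over tumors 107 to 134. What the form and the order of the numbers stand for is not given in the sources used here.

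Hoxb2, Hoxb3 and Hoxb5 kept their differences when these arrays were left out. Without the arrays of quality above 0.15 the log2 differences were 1.34, 1.03 and 0.37, all passing, whereas those of the 6 genes of the Hoxa and Hoxc clusters that had passed lay between -0.035 and -0.0015. Hoxb6 and Hoxb7, at 0.01 and 0.03, did not pass there either (limma adjusted p of 0.944 and 0.799). Without tumors 73 to 99 the differences of Hoxb2, Hoxb3 and Hoxb5 were 1.29, 0.99 and 0.36, all passing. Within tumors 73 to 99 they were 1.05, 0.69 and 0.37, of which Hoxb2 and Hoxb5 passed and Hoxb3 did not (limma adjusted p = 0.0575). Both parts of that split were compared after the uneven spread had been seen.

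Of the Hox cofactors and Cdx genes 3 of 11 rose and 0 fell, with a median log2 difference of 0.024, where 10.6% of all genes passed. The cofactor count was 0 without tumors 73 to 99 (1 at an unadjusted p under 0.05 from limma) and 0 without the arrays of quality above 0.15. Meis1, which binds DNA together with Hox proteins and lies on chromosome 11 outside the Hoxb cluster, ran from 6.60 to 10.21 in the high tumors, with a median of 8.89, and from 5.69 to 10.10 in the others, with a median of 7.36. It was above the median of the others in 16 of 19 high tumors, but only tumor 37, at 10.21, exceeded every other tumor. The difference was 1.01 ± 0.29 on the log2 scale, 2.01-fold (limma adjusted p = 0.0129). Meis2 rose by 0.36 and Pknox2 by 0.19, both below the floor in most tumors of either group, and Pknox2 did not pass without tumor 73 or 94 (the larger limma adjusted p was 0.106). Of 18 genes of the retinoic acid pathway, which induces Hox genes in the embryo, 2 rose, where 5.8% of all genes rose. The synthesis enzyme Aldh1a1 rose by 0.44, above the floor in 4 high and 0 other tumors. The receptor Rxrb rose by 0.17, but did not pass without tumor 17, 73 or 94 (limma adjusted p up to 0.103). Of 19 Polycomb and trithorax genes, whose products keep Hox clusters silent or active, 1 rose, close to the share of all genes that rose. This was the chromosome 11 gene Pcgf2, by 0.15, but not without tumor 17, 41, 92 or 94 (limma adjusted p up to 0.181).

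Across all genes 2117 of 19937 differed, 1157 higher and 960 lower in the Hoxb4-high tumors. The differences were small, with a median size of 0.20 on the log2 scale among the genes that passed, and 44 genes changed by more than 1.5-fold, 26 of them higher. No gene separated the groups completely. The count was 1127 without tumor 73 and 950 without tumor 94, and 668 genes passed whichever high tumor was left out. With scores of fibroblasts, adipocytes, skeletal muscle, endothelium, macrophages and luminal epithelium as covariates it was 29, without tumors 73 to 99 it was 43 and within them 12. In tumor RNA, fewer cells of a type and less RNA per cell cannot be told apart.

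Among the genes outside the Hox clusters the most positive differences were those of Hpse2 and Meis1. Hpse2, which encodes heparanase-2, an inhibitor of heparanase, ran from 5.48 to 10.22 in the high tumors, with a median of 7.02, and from 5.30 to 8.05 in the others, with a median of 5.70. It was above the floor in 15 of 19 high and 56 of 115 other tumors, and highest in tumor 37 at 10.22. The log2 difference was 1.03 ± 0.17, 2.05-fold (limma adjusted p = 1.84e-05). Clmp, an adhesion molecule of cell junctions, ran from 5.93 to 9.34 in the high tumors, with a median of 6.91, and from 5.49 to 7.17 in the others, with a median of 6.23, and 8 high tumors exceeded every other tumor. It differed by 0.78 ± 0.11 (limma adjusted p = 7.21e-07).

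Rgs2, a regulator of G protein signaling, had medians of 7.84 in the high and 7.12 in the other tumors and rose by 0.88. The cytokine Il33, with medians of 8.57 and 7.96, rose by 0.76, and 7 high tumors exceeded every other tumor. Mme, the endopeptidase neprilysin that myoepithelial cells carry, rose by 0.77 and the basal keratin Krt15 by 0.66. Amtn, an enamel protein, rose by 0.93, with medians of 7.04 and 5.88. Mme did not pass without tumor 64 or 73, nor Amtn without tumor 37, 90 or 94, with limma adjusted p up to 0.0649 and 0.0755. The others among the 15 most positive were the vault RNA Vaultrc5, the small nucleolar RNA Snora74a, the pyrimidine-degrading enzyme Dpyd, Smr2, the leptin gene Lep, Acsf2 and the amine oxidase Maob, each by 0.65 to 0.75. Without the arrays of quality above 0.15, Vaultrc5 was at 0.03 and Snora74a at 0.21 (limma adjusted p of 0.958 and 0.431), and 6 of the 15 passed: Hpse2, Clmp, Rgs2, Il33, Krt15 and Smr2. Without tumors 73 to 99, Hpse2, Clmp and Snora74a passed. Lep was 11.15 in the highest of the high tumors with a median of 5.01, and did not pass without tumor 73 or 94 (limma adjusted p up to 0.0893). Smr2 did not pass without tumor 37, 77, 90, 93 or 100 (limma adjusted p up to 0.108).

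Among the genes that passed, the most negative difference was that of Csn1s1, a milk casein. It ran from 5.24 to 12.51 in the high tumors, with a median of 9.31, and from 6.07 to 12.90 in the others, with a median of 10.66. The log2 difference was -1.24 ± 0.38 (limma adjusted p = 0.0215), and it did not pass without tumor 78, 92 or 94 (limma adjusted p up to 0.1). Tumors 78 and 94, at 5.24 and 5.32, lay below every other tumor, whereas 8 of the 19 high tumors lay above the median of the others.

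Car2, a carbonic anhydrase, had medians of 7.61 in the high and 8.69 in the other tumors and fell by 0.84, with 17 of 19 high tumors at or below the median of the others. Tc2n, a protein with C2 domains, fell by 0.86 and Sfrp1, a secreted antagonist of Wnt signals, by 0.73. The milk proteins Lao1, an amino acid oxidase, and Ltf, lactoferrin, fell by 0.92 and 0.67. The remainder of the 15 most negative were the cadherin Cdhr1, Dkkl1, 2610528A11Rik, the glycosyltransferase B4galt6, the innate immune protein Pglyrp1, Wfdc17, Gpnmb, a glycoprotein of macrophages and other cells, Hhipl2 and Chn2, a GTPase-activating protein, which fell by 0.61 to 0.75. Dkkl1 did not pass without tumor 73, Pglyrp1 and Chn2 not without tumor 73 or 94, and 2610528A11Rik not without tumor 17, 73, 78, 92 or 94, with limma adjusted p up to 0.0874. Without the arrays of quality above 0.15, 4 of the 15 passed (Tc2n, Car2, Cdhr1 and B4galt6). Without tumors 73 to 99, 0 passed, with 10 at an unadjusted p under 0.05 from limma. Hhipl2 passed in 7 of the 19 fits that left out 1 high tumor.

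The lists of luminal, alveolar, macrophage and cell cycle genes each held 4 to 6 genes that fell and 0 that rose. Over all genes 10.6% passed, 4.82% as lower, with a median log2 difference of 0.0060. All measured genes of these lists had a mean above the floor. Of 13760 genes above the floor, tested alone, 1835 passed, 980 of them as lower. The lists were chosen with earlier results of these data known. Of 9 genes of luminal progenitors and alveolar cells 4 fell and 0 rose, with a median log2 difference of -0.50: Csn1s1, Ltf, the endotoxin coreceptor Cd14 (-0.50) and the casein Csn3 (-0.21). Of 10 luminal epithelial genes 4 fell, with a median of -0.21, among them the keratin Krt8 (-0.33), Epcam (-0.19) and the E-cadherin gene Cdh1 (-0.18). Without tumor 73 the luminal epithelial count was 0, with 4 genes at an unadjusted p under 0.05 from limma, and 2 passed without tumor 94. The luminal epithelial count was also 0 without tumors 73 to 99 (0 at an unadjusted p under 0.05 from limma). It was 0 without the arrays of quality above 0.15. The alveolar count was 4 without tumor 73, 3 without tumor 94, 0 without tumors 73 to 99 (2 at an unadjusted p under 0.05 from limma) and 1 without the arrays of quality above 0.15. Epcam was 11.19 in the median high tumor and 11.27 in the median other tumor, with the lowest high tumor at 9.45.

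Of 10 macrophage genes 5 fell and 0 rose, with a median of -0.26. These were the complement genes C1qb (-0.46) and C1qc (-0.34), the receptor Csf1r (-0.28), Adgre1, which encodes F4/80 (-0.32), and Cd68 (-0.35). C1qb had medians of 8.96 and 9.39, and 18 of 19 high tumors lay at or below the median of the others. All 5 passed whichever high tumor was left out, and 4 of them passed without tumors 73 to 99. Without the arrays of quality above 0.15 only C1qb passed. Of 15 cell cycle genes 6 fell, such as Mki67 (-0.33) and the mitotic kinase Plk1 (-0.38), with a median of -0.23. The cell cycle count was 0 without tumor 73, with 6 at an unadjusted p under 0.05 from limma, and 2 without tumor 94. It was 0 without tumors 73 to 99 (1 at an unadjusted p under 0.05 from limma) and 0 without the arrays of quality above 0.15. The summed cell cycle signal had medians of 13.50 in the high and 13.49 in the other tumors on the log2 scale. In 10 of 19 high tumors it was above the median of the others.

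In the lists of basal and mesenchymal genes some members rose, and over all genes 5.8% were higher. Of 11 genes of myoepithelium and basal cells 3 rose, the contractile genes Cnn1 (0.62), Myh11 (0.48) and Mylk (0.32), and 1 fell, Sfrp1. The basal keratins Krt5, Krt14 and Krt17 did not pass, at 0.17, -0.06 and -0.19 (limma adjusted p of 0.607, 0.867 and 0.612). Myh11 did not pass without tumor 61 or 73 (limma adjusted p up to 0.0626). Of 10 genes of the epithelial-mesenchymal transition 4 rose: the N-cadherin gene Cdh2 (0.55) and the transcription factors Snai2 (0.39), Zeb1 (0.31) and Twist1 (0.17). Zeb1 did not pass without tumor 73, 90 or 94 (limma adjusted p up to 0.111). Twist1 did not pass without tumor 17, 61, 73 or 94 (limma adjusted p up to 0.227). Without tumors 73 to 99 the count of these 10 was 0 (3 at an unadjusted p under 0.05 from limma). The count was 1 without the arrays of quality above 0.15. The summed signal of these 10 genes had medians of 12.807 in the high and 12.865 in the other tumors on the log2 scale. In 9 high tumors it was above the median of the others.

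Of 18 genes of mammary Tbx and patterning factors 4 rose, where 5.8% of all genes did, led by the homeobox gene Prrx1 (0.53). The count of these 18 was 0 without tumors 73 to 99 (2 at an unadjusted p under 0.05 from limma) and 0 without the arrays of quality above 0.15. Of 20 Wnt pathway genes 2 rose, where 10.6% of all genes passed and 5.8% rose, led by the Wnt inhibitor Wif1 (0.60). Of 10 endothelial genes 3 rose, among them the VEGF receptor Kdr (0.34), with 0 passing without tumor 73 (2 at an unadjusted p under 0.05 from limma). Kdr had medians of 6.35 in the high and 6.42 in the other tumors, so the median high tumor was not higher. The summed signal of the 10 macrophage genes ran from 10.69 to 11.61 in the high and from 10.58 to 12.39 in the other tumors on the log2 scale. That of the 10 endothelial genes ran from 10.22 to 12.62 and from 10.23 to 11.42, with the highest value in tumor 73. The part of such cells in the differences of other genes was not tested beyond the scores used as covariates.

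**Figure D4:**
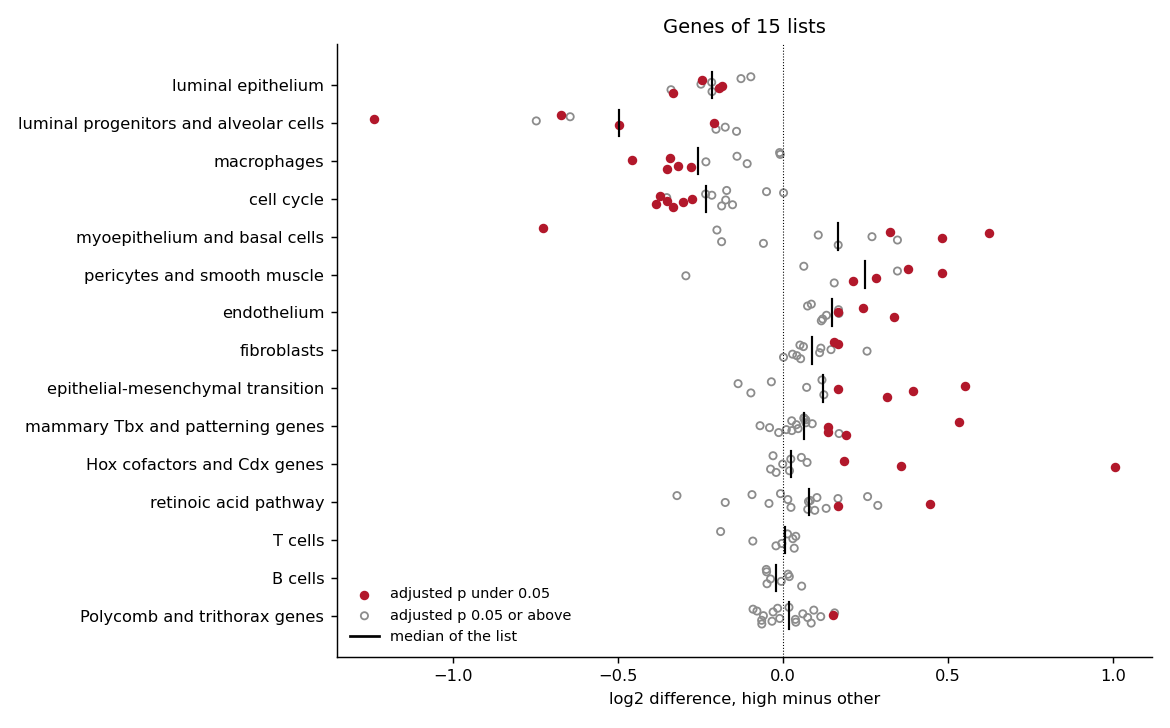
Log2 difference (high minus other tumors) of the genes of 15 lists, 1 point per gene, filled where the limma test passed, with a bar at the median of each list. Luminal, alveolar, macrophage and cell cycle genes lie mostly below 0, Csn1s1 farthest at -1.24, and Meis1 lies highest at 1.01.

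Few differences held when the 6 cell type scores were covariates. The scores contain the genes of their own lists, so the values of those genes are held there by construction. Of the 2117 genes, 28 passed again with the same sign, Hoxb2 (1.24), Hoxb3 (0.85) and Hoxb5 (0.32) among them. Of the 15 most positive genes Hpse2 (0.97), Clmp (0.65), Il33 (0.92) and Snora74a (0.65) passed, and of the 15 most negative 0, with 7 at an unadjusted p under 0.05 from limma. Csn1s1 was at -0.72 (limma adjusted p = 0.566), Meis1 at 0.69 (0.34) and C1qb at -0.04 (0.911).

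Surf4, a cargo receptor of the endoplasmic reticulum chosen after its values were seen, had the smallest adjusted p outside the Hoxb cluster. It ran from 10.54 to 11.57 in the high tumors, with a median of 11.14, and from 11.09 to 11.83 in the others, with a median of 11.43, and 17 of 19 high tumors lay at or below the median of the others. It differed by -0.32 ± 0.044 (limma adjusted p = 1.03e-07) and by -0.19 with the cell type scores. Hoxb2, Hoxb5 and Surf4 were the 3 genes that passed over all tumors, within tumors 73 to 99 and without them. Both parts of this split belong to the full set, and they were compared after the uneven spread had been seen.

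**Figure D5:**
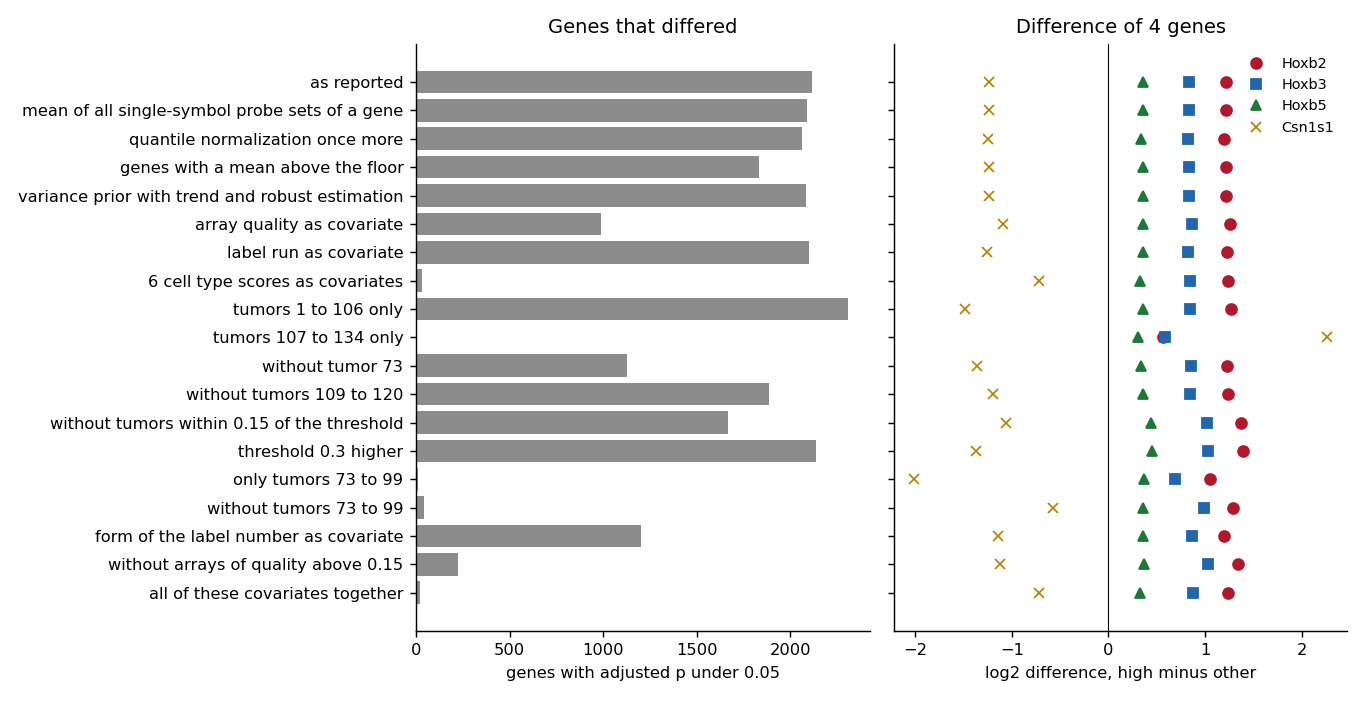
The left panel gives the number of genes with a limma adjusted p under 0.05 as reported (2117) and under 18 other settings, leaving out the fit with Hoxb4 as a continuous covariate, whose slope has another unit. The right panel gives the log2 difference of Hoxb2, Hoxb3, Hoxb5 and Csn1s1 under each: the 3 Hoxb genes stay above 0 throughout, whereas Csn1s1 is above 0 in tumors 107 to 134, which hold 1 high tumor.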

How the data were processed

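Gene expression of 134 mammary tumors was measured on Mouse Gene 1.0 ST arrays. The authors deposited log2 values made with RMA, whose version is not given in the sources used here, and they were used as deposited. Of 35556 probe sets, 21789 had 1 gene symbol, 1621 several and 12146 none. The single-symbol sets gave 19938 genes, each taken from its set with the highest mean, and 19856 matched RefSeq (GRCm38.p6), used for names and gene order. RMA scales arrays to each other, so differences are relative to all genes.

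High and other tumors were compared with limma 3.58.1 (lmFit, eBayes) in R 4.3.3 over all 134 tumors without covariates, with Benjamini-Hochberg adjustment over 19937 genes. The fit was tested on simulated data in which each gene varied independently. Those data held no correlated genes, no deviant arrays and the same spread in both groups, so the test does not cover these features of the tumors. The fit takes 1 variance per gene for both groups, whereas the spread of Epcam, for example, was larger in the high tumors. A fit with separate variances was not run. Array quality was compared with 100000 permutations. Other computations used Python 3.11.15, numpy 2.4.6, scipy 1.17.1, pandas 2.3.3 and matplotlib 3.10.9. The groups were set by measured Hoxb4, so differences are associations across tumors. Per the labels each tumor came from a separate animal. Alternatives were another choice of probe sets, normalization, variance prior, floor or threshold, covariates, and leaving out tumors.

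The genes named are the Hox genes, the 15 most positive and 15 most negative genes that passed outside the Hox clusters, the 10 chromosome 11 genes with the smallest adjusted p, and members of 34 lists (344 of 372 genes measured). The threshold, the members and the lists were chosen with earlier results of these data known. Human tumors and the other crosses were not analysed here.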

Additional observations from a re-analysis of the deposited data

How the results depend on the processing

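Counts below are in the order all genes, Hox genes, chromosome 11 genes outside the Hoxb cluster, and genes within 25 places of Hoxb4 outside the cluster, from limma at an adjusted p under 0.05, and were 2117, 11, 149 and 4 as reported. They were 990, 5, 58 and 1 with array quality as covariate, 29, 3, 1 and 0 with the 6 cell type scores, and 1127, 6, 76 and 2 without tumor 73. In tumors 107 to 134, with 1 high tumor assumed to vary like the others, they were 3, 0, 0 and 0. With Hoxb4 as a continuous covariate 1281 genes and 88 on chromosome 11 passed. The Hox count was 5 among genes above the floor, and the count near Hoxb4 was 1 after quantile normalization and 2 without tumors within 0.15 of the threshold. Leaving out each high tumor in turn gave 950 to 2440, 5 to 14, 63 to 176 and 0 to 5. The settings that follow were chosen after seeing the data. They gave 12, 2, 1 and 0 in tumors 73 to 99, 43, 3, 3 and 0 without them, 225, 3, 10 and 0 without arrays of quality above 0.15, 21, 3, 0 and 0 with quality, label run, label form and cell type scores together, and 1202, 81 on chromosome 11 and 0 near Hoxb4 with label form as covariate. Where 0 passed, limma gave at an unadjusted p under 0.05 4 Hox genes, 58 chromosome 11 genes and 0 genes near Hoxb4 in tumors 107 to 134, 122 chromosome 11 genes with all covariates, and 2 to 9 genes near Hoxb4 under the other settings and without tumor 94. Under the remaining settings each count stayed within 1.5 times that reported. Array quality differed by 0.0244 between the groups, and by 0.0468 as an interquartile range. The Fisher's exact p for the label runs was 0.123, and 0.0707 with a threshold 0.3 higher.

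Of 76 named genes, 48 passed in all 19 fits that left out 1 high tumor. Signs turned as follows, with the log2 difference in parentheses; the cause was not tested. In tumors 107 to 134, with 1 high tumor, they were Hoxb7 (-0.041), Hoxc11 (-0.083), Hpse2 (-0.20), Meis1 (-0.86), Amtn (-1.12), Rgs2 (-0.035), Clmp (-0.12), Mme (-0.27), Il33 (-0.74), Vaultrc5 (-0.34), Snora74a (-0.078), Dpyd (-0.12), Smr2 (-0.33), Krt15 (-0.80), Acsf2 (-0.57), Maob (-0.043), Csn1s1 (2.26), Lao1 (1.84), Tc2n (1.35), Cdhr1 (0.13), Sfrp1 (0.32), Dkkl1 (0.59), Ltf (0.57), B4galt6 (1.24), Pglyrp1 (0.43), Wfdc17 (0.20), Hhipl2 (1.03), Chn2 (0.97), Pitpna (0.029), Tlcd3a (0.12), Alox12 (-0.013), Ap2b1 (0.029), Canx (0.11), Mapt (-0.028), Meis2 (-0.40), Adgre1 (0.026), Cd14 (0.0077), Csn3 (0.18), Cnn1 (-0.045), Mylk (-0.079), Twist1 (-0.012), Wif1 (-0.80), Aldh1a1 (-0.11) and Rxrb (-0.010). Without arrays of quality above 0.15 they were Hoxc6 (-0.033), Hoxc8 (-0.018), Hoxc11 (-0.0015), Hoxa3 (-0.0030), Hoxa5 (-0.0069), Hoxa10 (-0.035), Lep (-0.086), Pknox2 (-0.041), Epcam (0.0023), Kdr (-0.12) and Twist1 (-0.047). With all covariates together they were Hoxa3 (-0.00028), Lep (-0.024), C1qc (0.0052), Cd68 (0.0028), Plk1 (0.017), Kdr (-0.0021) and Twist1 (-0.014). Without tumors 73 to 99 it was Hoxa10 (-0.041). With the cell type scores they were C1qc (0.040), Cd68 (0.0078) and Twist1 (-0.0066).

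The precision is limited by the 19 high tumors and by signals near the floor: Hoxb4 was above it in 31 of 134 tumors, and most Hoxa, Hoxc and Hoxd genes lay below it. Small differences among them are of limited meaning. Groups cut from a continuous level have no natural border, and 10 tumors lay within 0.15 of the threshold.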

Other observations

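Several groups of genes held no gene that passed the test between the Hoxb4-high and the other tumors. Of 8 T cell, 8 B cell, 10 skeletal muscle, 3 erythroid, 11 salivary and lacrimal gland, 6 Schwann cell, 8 interferon response and 10 immediate early genes 0 passed (limma, adjusted over all genes), and 6 of these 64 genes had an unadjusted p under 0.05. Their median log2 differences lay between -0.32, for skeletal muscle, and 0.026, for Schwann cells. Of 9 genes of blood stem and progenitor cells, the cells in which Hoxb4 is best known, Meis1 rose and Gfi1b, a repressor in red cell and platelet precursors, fell, with a difference of -0.12 ± 0.036 (limma adjusted p = 0.0201), but not without tumor 61 or 73 (limma adjusted p up to 0.0513). The counts that follow are to be read against the 10.6% of all genes that passed, and most are close to it. Of 12 fibroblast genes 2 rose, and of 9 adipocyte genes 1, with 0 passing in either list without tumor 73 (2 and 1 at an unadjusted p under 0.05 from limma). Of 8 genes of pericytes and smooth muscle 4 rose, and 1 without tumor 73. The pericyte count was 0 without tumors 73 to 99 (4 at an unadjusted p under 0.05 from limma) and 0 without the arrays of quality above 0.15. The summed pericyte signal had medians of 11.36 in the high and 11.40 in the other tumors on the log2 scale. Of 7 genes of hormone-sensing luminal cells Cited1 rose (0.27), and of 11 genes of keratinocytes and hair follicle Msx2 (0.14), but Cited1 not without tumor 61 or 73 and Msx2 not without tumor 64 (limma adjusted p up to 0.132 and 0.0634). Of 6 plasma cell genes Xbp1, a regulator of secretion, fell (-0.27), of 11 hypoxia genes the lactate dehydrogenase Ldha fell (-0.23), and of 9 neutrophil genes lactoferrin, Ltf, fell (-0.67). Of 11 mast cell genes Tpsb2 (0.16) and Fcer1a (0.06) rose, Tpsb2 not without tumor 61, 73, 90 or 94 and Fcer1a not without tumor 77, 85, 90, 92, 93 or 94 (limma adjusted p up to 0.0903 and 0.126).

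The genes that passed were spread over the genome. Outside the Hoxb cluster the share that passed lay between 7.92% of the genes of chromosome 13 and 14.7% of those of chromosome 18, with 9.6% on chromosome 11. Among the 28 genes that passed both with and without the cell type scores, and that were chosen after their values were seen, were Rasgrf1, a Ras exchange factor (0.24), Gclc, the catalytic subunit of glutathione synthesis (0.23), Dsg3, a desmosomal cadherin of stratified epithelium (0.52), and the secreted protease Htra1 (0.61). Rasgrf1 ran from 5.34 to 6.09 in the high and from 4.99 to 5.71 in the other tumors, and lay above the floor in 7 and 0 tumors.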
